A study of Mus musculus with 12 samples.

Results

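The oligoadenylate synthetases are a family of interferon-inducible enzymes and enzyme-like proteins, and the 8 mouse genes Oas1a, Oas1b, Oas1c, Oas1g, Oas2, Oas3, Oasl1 and Oasl2 were followed here in cultured oligodendrocyte precursor cells (OPCs). The 8 genes were taken as a named list, whatever their values, and are 8 of 55536 genes with summed reads, of which 17919 were abundant enough to test. OPCs came from pooled brains of mouse pups at postnatal day 4 to 6 and were grown in a medium with PDGFaa and bFGF that keeps them dividing. The labels describe them as Sox10GFP+ OPCs, from mice in which Cre under the Sox10 promoter switches on EGFP in the whole oligodendrocyte lineage. Such mice came from crossing a Cre line on a C57BL/6j background with a reporter line on a mixed C57BL/6xCD1 background. The protocol allows either sorting of GFP+ cells or magnetic selection of CD140a+ cells, without saying which was used for a given library. The sample labels also carry the mouse model tag EAE for all 12 libraries, although the cells were taken from pups. Untreated cells (Ctr) were compared with cells given dexamethasone at 1 µM (Dexa), a glucocorticoid, or interferon gamma at 100 ng/ml (IFNg) for 48 hours, with 4 libraries a group from different litters. The 11 full libraries held 19209063 to 52074652 reads. The table of Dexa replicate 3 stopped at 33.7% of the transcripts and lists none of the 8 genes, so Dexa rests on 3 libraries for them. Summed OPC marker counts, normalized for library size, lay between 174200 and 298400 in Ctr and between 125600 and 263500 in IFNg.

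When double-stranded RNA binds an active oligoadenylate synthetase, the enzyme joins ATP into short chains of adenylate with a 2'-5' linkage, known as 2-5A. These chains are a messenger that sets off the breakdown of RNA in infected cells. In mice the Oas1 gene has been duplicated into many neighbouring copies, Oas2 and Oas3 encode larger enzymes, and Oasl1 and Oasl2 encode proteins that carry ubiquitin-like domains. Expression of the family is usually described downstream of interferon through transcription factors such as the interferon regulatory factors, which bind promoter elements known as the interferon-stimulated response element (ISRE) and the gamma-activated site (GAS).

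All 8 genes lie on chromosome 5 (GRCm38) in a pair of groups. Oasl2 (114896936 to 114912234) and Oasl1 (114923240 to 114937915) lie side by side on the plus strand. Oas2 (120730333 to 120749853), Oas3 (120753098 to 120777661), Oas1c (120800194 to 120812514), Oas1g (120876142 to 120887613) and Oas1a (120896256 to 120907521) lie on the minus strand of a cluster that spans 177.2 kb. Oas1b (120812635 to 120824163) lies in the same cluster on the plus strand, and its start is 121 bp from the start of Oas1c, from which it is read in the opposite direction.

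The promoter sequences are shown because the genes differed so widely in level under IFN-gamma. RefSeq windows (GRCm38.p6) from 250 bases before to 50 bases after the start were available for 6 of the 8 genes, and Oas1b and Oas2 had none. Each was searched on both strands for an ISRE-type pattern (GAAANNGAAA) and a GAS-type pattern (TTCNNNGAA). Of 32851 such windows, 3.44% held the ISRE-type pattern and 8.3% the GAS-type pattern. The stretch from 130 bases before to 50 bases after the start is given below for the genes that held a match and for Oasl2, the most abundant member, with matches in capitals.
Oas1a, chr5:120907476-120907655, minus strand: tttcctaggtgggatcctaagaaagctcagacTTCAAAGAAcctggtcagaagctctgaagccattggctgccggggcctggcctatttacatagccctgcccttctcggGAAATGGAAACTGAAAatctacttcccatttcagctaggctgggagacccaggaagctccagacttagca
Oas1g, chr5:120887564-120887743, minus strand: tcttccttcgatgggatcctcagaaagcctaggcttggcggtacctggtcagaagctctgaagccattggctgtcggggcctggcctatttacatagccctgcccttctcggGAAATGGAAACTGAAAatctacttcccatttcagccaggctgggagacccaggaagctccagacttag
Oas1c, chr5:120812465-120812644, minus strand: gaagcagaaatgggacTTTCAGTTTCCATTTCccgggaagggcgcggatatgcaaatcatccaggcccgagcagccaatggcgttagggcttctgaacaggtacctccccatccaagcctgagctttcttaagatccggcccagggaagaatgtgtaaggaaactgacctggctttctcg
Oas3, chr5:120777610-120777789, minus strand: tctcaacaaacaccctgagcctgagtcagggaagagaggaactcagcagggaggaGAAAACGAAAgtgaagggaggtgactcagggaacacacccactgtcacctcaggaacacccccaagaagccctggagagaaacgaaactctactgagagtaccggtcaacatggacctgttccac
Oasl2, chr5:114896804-114896983, plus strand: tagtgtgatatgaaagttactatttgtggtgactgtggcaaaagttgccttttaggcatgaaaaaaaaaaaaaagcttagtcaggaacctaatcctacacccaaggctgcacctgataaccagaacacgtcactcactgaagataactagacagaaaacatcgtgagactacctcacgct
Oas1a and Oas1g each held a pair of overlapping ISRE-type matches, which together made the 16 bases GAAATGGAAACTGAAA. In Oas1a these bases lay from 20 to 5 bases before the start, and in Oas1g from 18 to 3 bases before it. The Oas1c window held the same 16 bases on the opposite strand (chr5:120812613-120812628). Seen from Oas1b, whose start is known from the GENCODE annotation, that copy is on the same strand and covers 22 to 7 bases before the start. The 16 bases occurred in 7 of the 32851 windows, and the others belonged to Apol9a and Apol9b. Oas3 held 1 ISRE-type match that began 75 bases before the start, and Oas1a held 1 GAS-type match that began 98 bases before it. The windows of Oasl2 and Oasl1 held neither pattern.

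The Ctr cells contained almost no transcript of the family. The 8 genes together drew 11 to 37 reads per Ctr library and 4 to 20 per Dexa library, against 5144 to 8805 per IFNg library. In TPM, a level per length that adds up to the same total in each library, the sum was 0.236 ± 0.085 in Ctr (SD, n = 4), 0.148 ± 0.073 in Dexa (n = 3) and 94.6 ± 23.7 in IFNg (n = 4). Pooled over libraries and scaled by library size, the IFNg reads were 450 times those of Ctr (95% exact counting interval 367 to 559). Such intervals here cover counting error only. In bulk RNA, more cells that express a gene and more RNA per cell cannot be told apart.

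Differences between groups were tested with DESeq2 on genes that had at least 10 reads in at least 4 libraries, and a gene was called at a Benjamini-Hochberg adjusted p under 0.05. Of the 8 genes, 5 could be tested (Oas1a, Oas1b, Oas1c, Oas1g and Oasl2). Of these, 4 reached the minimum in IFNg libraries alone and so had to differ, while Oasl2 reached 10 reads in 6 libraries. Outside IFNg those were only Ctr replicate 3 (18 reads) and Dexa replicate 2 (10 reads), so Oasl2 too passed only through IFNg. The calls, p-values and median given below for the 5 genes are thus no support beyond that minimum. Oasl1 reached 10 reads in 3 libraries, and Oas2 and Oas3 in 0. All 5 tested genes were called higher in IFNg than in Ctr, where 8.02% of all genes tested were called higher and 4.83% lower. The median log2 fold change of the 5 was 8.48, beside -0.016 over all genes tested. The 5 were likewise called higher in IFNg than in Dexa, where 7.66% of all genes were called higher and 5.43% lower. That comparison shares its IFNg libraries with the first.

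**Figure D1:**
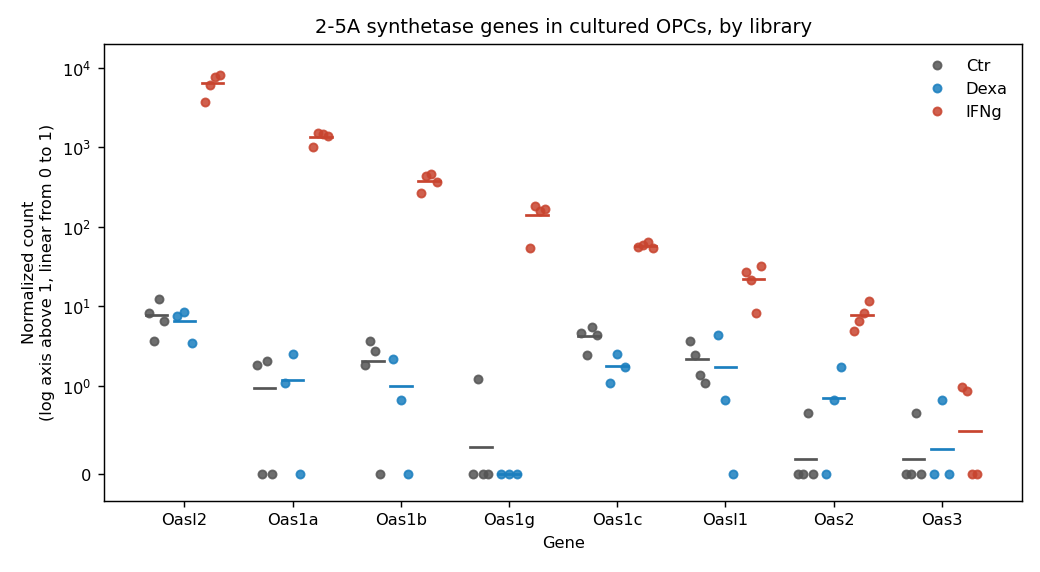
Normalized counts (vertical axis, logarithmic above 1 and linear from 0 to 1) of the 8 oligoadenylate synthetase genes in each library of Ctr (grey, 4 libraries), Dexa (blue, 3 libraries) and IFNg (red, 4 libraries), with short lines at the group means. For Oasl2 and Oas1a the IFNg points lie far above the others, and for Oas3 the groups overlap.

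Oasl2 was the most abundant member. It drew 9, 6, 18 and 6 reads in Ctr replicates 1 to 4, 7, 10 and 2 reads in Dexa replicates 1, 2 and 4, and 3714, 6441, 6552 and 6298 reads in IFNg replicates 1 to 4. The IFNg libraries were far above all others. The log2 fold change of IFNg over Ctr was 9.69 ± 0.39 (SE; DESeq2 adjusted p = 3.91e-134), and the pooled ratio was 809 (592 to 1138).

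Oas1a, which encodes a catalytically active synthetase, was almost unread outside IFNg. Ctr replicates 1 to 4 held 2, 0, 3 and 0 reads, Dexa replicates 1, 2 and 4 held 1, 3 and 0, and IFNg replicates 1 to 4 held 1020, 1618, 1248 and 1073. The groups did not overlap, and the log2 fold change was 10.41 ± 0.68 (DESeq2 adjusted p = 2.23e-51). With 5 Ctr reads in all, the pooled ratio of 1360 had a counting interval from 582 to 4190.

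Oas1g, the close relative of Oas1a, drew 0, 2, 0 and 0 reads in Ctr, 0 in each Dexa library, and 55, 195, 136 and 130 in IFNg replicates 1 to 4. IFNg was higher by 8.48 ± 1.08 on the log2 scale (DESeq2 adjusted p = 2.48e-13). The division of reads between Oas1g and Oas1a is uncertain, because their transcripts are so alike. Of the 1855 stretches of 31 bases in Oas1a transcripts, 1275 (68.7%) also occur in Oas1g, which makes 54.6% of those of Oas1g. The sum of both genes does not depend on that division and was 1072 times higher in IFNg than in Ctr (520 to 2669).

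Oas1b is the gene known for the resistance of mice to flaviviruses, and many laboratory strains carry a copy with an early stop. The annotation lists it as a polymorphic pseudogene. It drew 2, 6, 4 and 0 reads in Ctr, 2, 1 and 0 in Dexa and 266, 457, 401 and 284 in IFNg. The groups were separate, with a log2 fold change of 7.36 ± 0.49 (DESeq2 adjusted p = 3.29e-48) and a pooled ratio of 161 (91.8 to 312). Only 6.70% of its 31-base stretches occur in other genes.

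Oas1c, a further copy of the Oas1 group, had the smallest change of the 5 genes tested. Its reads were 5, 4, 8 and 4 in Ctr, 1, 3 and 1 in Dexa, and 56, 63, 55 and 42 in IFNg. IFNg was higher by 3.81 ± 0.39 on the log2 scale (DESeq2 adjusted p = 4.08e-21), with a pooled ratio of 14.1 (8.996 to 23.25). In 4 of 4 pairs of the same replicate number the IFNg library was higher, by 3.54 to 4.59 on the log2 scale. Oas1c and Oas1b, whose starts face away from each other across 121 bp, thus had pooled ratios whose counting intervals did not overlap. These intervals leave out the spread between libraries, and 20.7% of the 31-base stretches of Oas1c occur in other genes.

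The remaining 3 genes were too scarce to pass the minimum. Oasl1 encodes a relative without synthetase activity that is known as a brake on IRF7 translation. It drew 4, 4, 2 and 1 reads in Ctr, 4, 1 and 0 in Dexa and 27, 23, 7 and 25 in IFNg, so that IFNg lay above the other groups in each library. The pooled ratio was 10.2 (5.42 to 21.3). Oas2, one of the larger enzymes, drew 0, 0, 1 and 0 reads in Ctr, 0, 1 and 1 in Dexa, and 5, 7, 7 and 9 in IFNg. Its groups did not overlap either, but with 1 Ctr read the pooled ratio of 38.4 could lie anywhere between 6.35 and 1570. In a DESeq2 fit with no minimum on counts, both were called higher in IFNg, at adjusted p = 3.40e-05 for Oasl1 and 7.20e-04 for Oas2.

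Oas3 stood apart from the rest. This gene, which encodes the largest enzyme of the family and is known as a main source of 2-5A in other cells, drew 0, 0, 1 and 0 reads in Ctr, 0, 1 and 0 in Dexa, and 1, 1, 0 and 0 in IFNg. These values overlap fully, and no fold can be given at this depth. Both IFNg reads were assigned to a transcript annotated with a retained intron, and 0 to its coding transcripts.

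The order of levels within IFNg was read from TPM, since the genes differ in length. Over all transcripts Oasl2 came first at 69.0 ± 18.2 TPM (SD, n = 4) and Oas1a next at 16.7 ± 3.70. Oas1b followed at 5.56 ± 1.37, Oas1g at 2.36 ± 1.07 and Oas1c at 0.632 ± 0.057. The lowest were Oasl1 at 0.301 ± 0.161, Oas2 at 0.058 ± 0.014 and Oas3 at 0.0050 ± 0.0058. No neighbours in this order overlapped in their ranges over the 4 libraries. Oasl2 made up 69.98% to 75.18% of the family's TPM and Oas1a 16.03% to 20.59%.

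The order was less sharp when only transcripts annotated as protein coding were summed, with the pseudogene model of Oas1b counted among them. Oasl2 then fell to 29.0 ± 6.60 TPM, and its range of 19.4 to 34.5 overlapped that of Oas1a, 12.4 to 21.3. Oas1g fell to 0.710 ± 0.391 TPM and overlapped Oas1c at 0.632 ± 0.057. The place of Oas1a above Oas1b was kept, at 16.7 against 4.68 TPM, but the Oas1b value came from its pseudogene model alone. Its protein-coding transcript Oas1b-201 held 0 reads in IFNg.

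**Figure D2:**
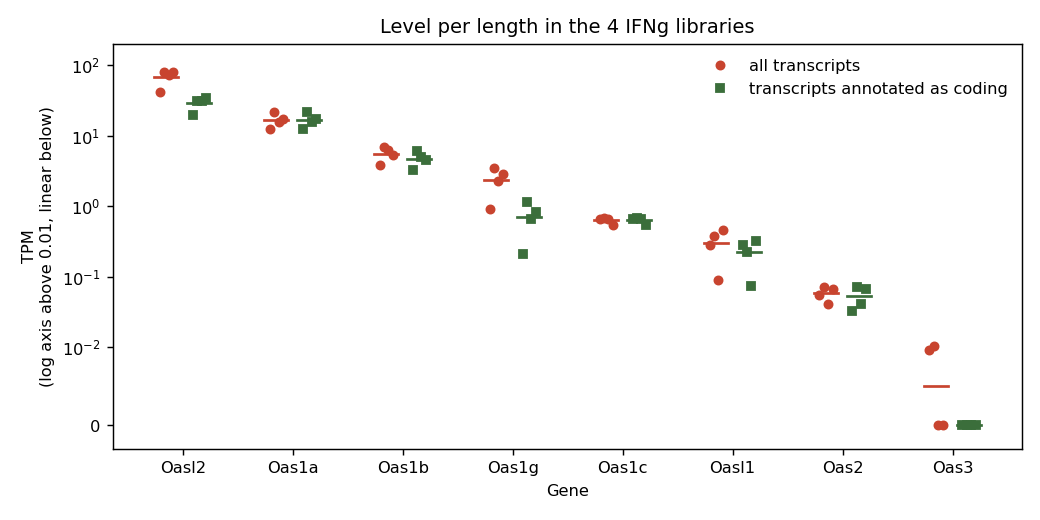
TPM (vertical axis, logarithmic above 0.01 and linear below) of each gene in the 4 IFNg libraries, from all transcripts (red circles) and from transcripts annotated as coding (green squares), with short lines at the means. For Oas1b the green squares show its pseudogene model. The all-transcript ranges step down from Oasl2 to Oas3 without overlap, while the coding values of Oasl2 come down to overlap those of Oas1a.

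Most of that difference lay in transcripts annotated as targets of nonsense-mediated decay, the pathway that removes mRNA with an early stop. In IFNg, the coding transcript Oasl2-201 held 49.6% ± 6.53 of the reads of Oasl2 (SD, n = 4) and the decay transcript Oasl2-205 held 42.4% ± 4.90. For Oas1g the coding transcript Oas1g-201 held 40.4% ± 5.94, the decay transcript Oas1g-203 held 48.8% ± 6.44 and the retained-intron transcript Oas1g-202 held 10.8% ± 0.730. Only 1.41% of the 31-base stretches of Oasl2-205 and 7.27% of those of Oas1g-203 occur in no other transcript, so these shares rest on few bases that tell the models apart. The shares could not be compared with Ctr, where every member had a library with fewer than 10 reads. By contrast, 100% of the Oas1a reads went to its single coding transcript, the only one annotated. For Oas1b, 96.1% ± 0.851 of the reads went to Oas1b-203, the pseudogene model. Only 2.55% of the 31-base stretches of Oas1b-203 occur in no other transcript, so that share has the same limit.

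**Figure D3:**
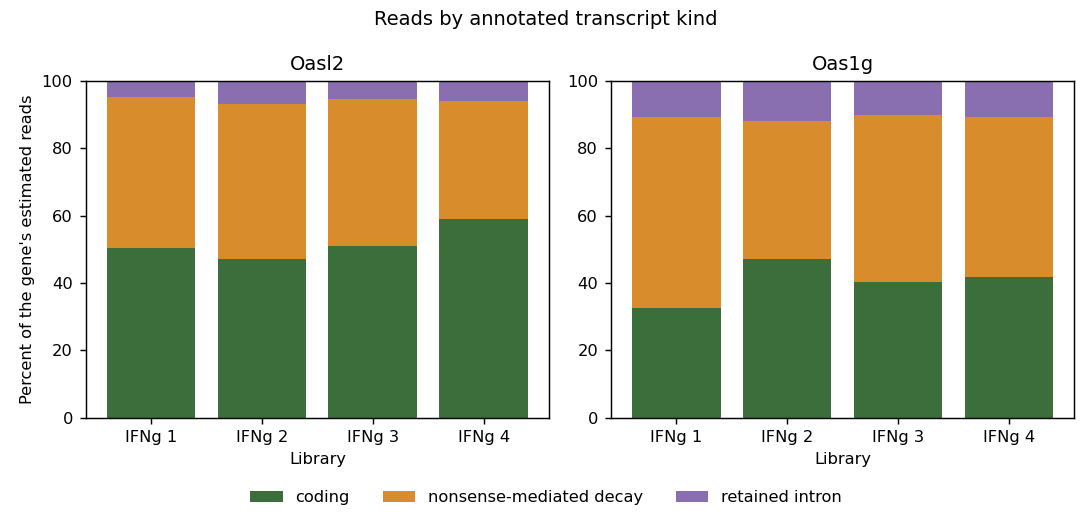
Percent of the estimated reads of Oasl2 (left) and Oas1g (right) given to transcripts annotated as coding (green), as targets of nonsense-mediated decay (orange) and as holding a retained intron (purple), with 1 bar per IFNg library. Decay transcripts take a large share of both genes in each of the 4 libraries.

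The IFNg replicates were not equally high. IFNg replicate 1 was the lowest for Oas1a, Oas1b, Oas1g, Oas2 and Oasl2, at 0.388 times the group mean for Oas1g and 0.579 times for Oasl2 (normalized counts). It was not the lowest for Oas1c, Oasl1 or Oas3. The coefficient of variation over the 4 libraries was 7.76% for Oas1c, below the 13.6% that counting alone gives at its depth, and 17.0% for Oas1a, 23.4% for Oas1b, 31.1% for Oasl2 and 41.5% for Oas1g, all well above counting error. Without IFNg replicate 1, all 5 tested genes were still called when the set of genes tested was kept. With the minimum on counts recomputed, only Oasl2 reached it.

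Dexamethasone left the family near 0. Between Dexa and Ctr 0 of the 5 tested genes were called by DESeq2, by edgeR or in the fits with replicate number as a block, while 0.508% of all genes tested were called higher and 0.0391% lower. At an unadjusted p under 0.05 the DESeq2 count was also 0. The log2 differences ran from -1.16 ± 0.75 for Oas1c to 0.58 ± 0.99 for Oas1a (SE). Pooled over the 8 genes, Dexa reads were 0.801 times those of Ctr, and the counting interval of 0.536 to 1.18 bounds what this depth could show. For single genes it could show little, as Oasl2 had a ratio of 0.920 with an interval from 0.502 to 1.63.

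Genes listed for 2-5A turnover did not pass the test. Pde12 and Akap7 encode enzymes of the 2-5A-degrading kind, and Abce1 encodes a factor that also recycles ribosomes. The IFNg against Ctr log2 differences were 0.05 ± 0.12 for Pde12, 0.09 ± 0.16 for Akap7 and 0.07 ± 0.07 for Abce1 (SE).

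The other Oas1 copies of the cluster were close to silent. Oas1h drew 2, 2, 6 and 8 reads in IFNg replicates 1 to 4 and 2 reads in all of Ctr, a pooled ratio of 12.3 (2.96 to 110). Oas1d drew 0, 4, 2 and 3 reads in IFNg and Oas1f 4, 3, 2 and 0, and both were at 0 in Ctr and Dexa. With the Ctr group set at the limit of 3 counts, the ratio of IFNg to Ctr was 4.11 for each. That value leaves out the counting error of the 9 IFNg reads of each gene. Oas1e had 0 reads in all 11 libraries. Of the 31-base stretches of Oas1d, 22.3% occur in other genes.

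Sensors of foreign RNA and DNA changed in IFNg as well. Of 9 such genes, all tested, 7 were called higher than in Ctr, 0 lower, with a median log2 fold change of 3.34. Zbp1, a sensor of left-handed nucleic acid, rose by 8.21 ± 0.45 on the log2 scale. It reached 10 reads in 4 libraries, those of IFNg, so its call within the 7 was fixed by the minimum and adds no support. Ifih1, which encodes MDA5, rose by 6.19 ± 0.34, and Ddx58, which encodes RIG-I, by 3.60 ± 0.19. Eif2ak2, the RNA-dependent kinase PKR, rose by 3.34 ± 0.27, and Adar, which edits double-stranded RNA, by 1.18 ± 0.05. Mavs, the adaptor below MDA5 and RIG-I, was not called at -0.07 ± 0.12, and Cgas was called only with the replicate block (1.01 ± 0.22, DESeq2 adjusted p = 2.73e-05).

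Of 12 genes of interferon signalling, 8 were called higher in IFNg and 1 lower. Irf1, a factor that acts early after IFN-gamma, rose by 6.02 ± 0.10 on the log2 scale. Irf9 (4.11 ± 0.15), Irf7 (3.50 ± 0.30) and Stat2 (3.29 ± 0.12) also rose, and the first and last of these encode parts of the complex that binds the ISRE. Ifngr1, a receptor chain for IFN-gamma, fell by 0.28 on the log2 scale in DESeq2 (adjusted p = 0.0225) but was not called by edgeR (adjusted p = 0.0858). Genes for interferons themselves were nearly unread. Of 10 such genes, 9 had 0 reads in all IFNg libraries and Ifnk had 1, so a change in their level was not detectable at this depth.

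None of the tested genes around the clusters was called higher with the synthetases, apart from Mlec in the fit with the replicate block. Within 250 kb of the Oas1, Oas2 and Oas3 cluster 13 other genes were tested, of which 0 were called higher and 3 lower in IFNg than in Ctr. Rph3a, a synaptic vesicle protein gene that lies beyond Oas1d on the Oas1a side, fell by 3.68 on the log2 scale (SE 0.60, DESeq2 adjusted p = 3.03e-08), from a mean normalized count of 1052 to 82.4. Gm42656, a transcript model inside Rph3a, fell by 4.20, and Dtx1 by 0.48. Around Oasl1 and Oasl2, 15 genes were tested, with 0 called higher and 1 lower, Cabp1, which fell by 1.08. With the replicate block, the Oasl count became 1 higher (Mlec) and 4 lower. That fit called many more of all genes tested, as given in the last section, so this count is no result about these neighbours.

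**Figure D4:**
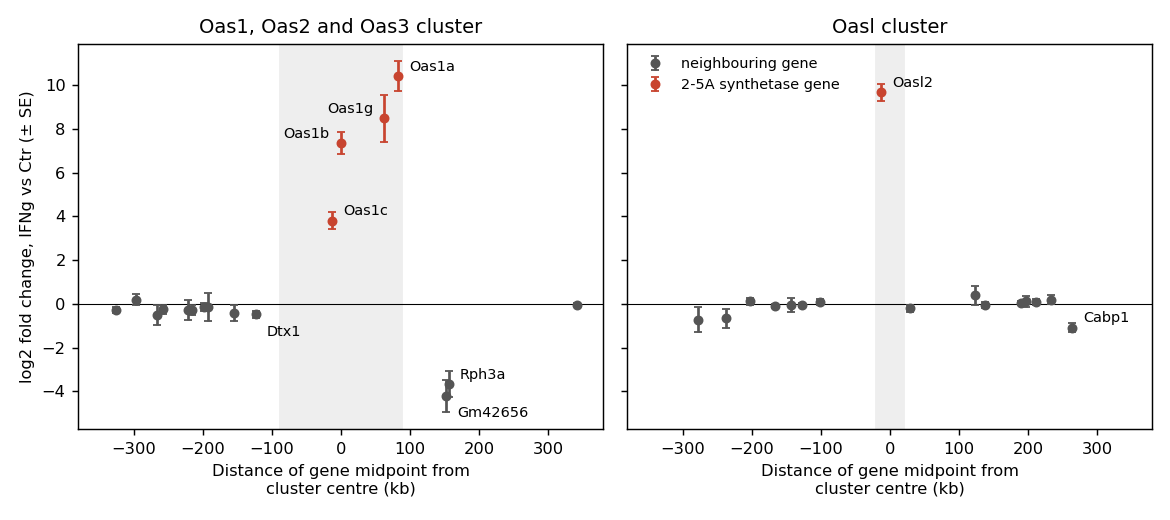
Log2 fold change of IFNg over Ctr (vertical axis, bars are SE) for each tested gene within 250 kb of the Oas1, Oas2 and Oas3 cluster (left) and the Oasl cluster (right), against the distance in kb of the gene's midpoint from the cluster's centre, with the cluster shaded. The synthetase genes (red) lie between 3.81 and 10.41, while neighbouring genes (grey) lie near 0 or below.

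Across the 11 full libraries, the genes most like the summed family in normalized count were Iigp1 (Pearson r = 0.9988 over 11 libraries), Ifit1 (0.9986), B2m (0.9977), Olfr56 (0.9975) and Gm4951 (0.9971). Of 17914 genes compared, 89 had r above 0.99. These points share libraries and the contrast of IFNg with the rest, so the values describe a shared step between groups.

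Markers of other cells were read beside these results. Of 11 microglia and macrophage markers, 2 had enough reads to test and 0 were called between IFNg and Ctr. The summed normalized counts of all 11 lay between 17.4 and 47.7 in Ctr and between 36.8 and 56.5 in IFNg. Astrocyte markers summed to 19000 to 51570 in Ctr and 35580 to 52290 in IFNg, with Gfap (log2 fold change 3.82 ± 0.59) and Aldoc (0.78 ± 0.28) called higher among 8, Aldoc not by edgeR (adjusted p = 0.0985). With the replicate block, 4 of the 8 astrocyte markers were called higher and 3 lower. Of 8 OPC markers 1 was called lower in IFNg, C1ql1 (-2.20 ± 0.66), with 0 called lower by edgeR and 5 with the replicate block. Among 3 neuron markers tested, Syt1 was called higher (1.10 ± 0.20), and with the replicate block 1 was called higher and 1 lower. The replicate block called many more of all genes tested, as given in the last section, and the marker counts from it are to be read beside that. The part of these markers in the synthetase results was not tested.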

How the data were processed

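RNA was sequenced from 12 libraries of cultured mouse OPCs (TruSeq Stranded Total RNA Gold). Per the labels, the authors quantified transcripts with Salmon 0.8.2, and the deposited tables hold estimated counts and TPM per transcript. All 141862 transcripts matched GENCODE M21 (GRCm38). The authors' own DESeq2 tables hold fold changes and p-values and were not used. Here estimated counts were summed per gene and rounded. The table of Dexa replicate 3 is incomplete (47855 transcripts) and was left out. The other 11 libraries, with 19209063 to 52074652 reads, were fitted together in DESeq2 1.42.0 (R 4.3.3, Wald test, group only). Alternatives were edgeR 4.0.16, the replicate number as a block, TMM or total-read size factors, no minimum on counts, 2 groups only, and leaving out each library. Scripts were tested on simulated data. Litters differed between replicates, and libraries of the same number deviated together (r of deviations from group means 0.404 to 0.722 in all 10 pairs, against -0.614 to 0.495 for different numbers), so the numbers pair the libraries. No replicates of a group agreed within sampling noise (chi-square per degree of freedom at least 23.5). Ratios of reads carry 95% exact counting intervals, and a group at 0 was given a limit of 3 counts. All 8 members were named, and further genes came from fixed lists, named where called or, if none was, by abundance. The members and lists were chosen with earlier results of these data known, and no list was tested as a set. Some listed genes are not reported here. Apol9a and Apol9b were named after their sequences were seen.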

Additional observations from a re-analysis of the deposited data

Results flagged for a closer look

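In groups of 4, 3 values stood far from the others of their group by Dixon's ratio, which flags about 1 group in 20 by chance. All 3 are single Ctr libraries with a few reads where the other 3 had 0. In such a group the ratio is 1.0 whatever the read count, so the rate of 1 in 20 does not apply to them. Oas1g had a normalized count of 1.24 in Ctr replicate 2 (2 reads). Oas2 and Oas3 each had 0.689 in Ctr replicate 3 (1 read each).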

How the results depend on the processing

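The 5 members called in IFNg against Ctr, and against Dexa, were called in each alternative that tested them, namely edgeR, both fits with the replicate block, both other scalings, the fits of 2 groups only and all fits that left out 1 library with the genes tested kept. Since Oas1a, Oas1b, Oas1c and Oas1g reached the minimum in IFNg libraries alone, and Oasl2 passed it only through them, these calls add no support. With no minimum on counts, 7 of 8 were called against Ctr and 6 against Dexa. The share of all genes called in that fit is not given here, so these counts have no background beside them. If the minimum is recomputed after leaving out a library, an alternative chosen after seeing the data, the count ran from 1 to 5 in both comparisons, because without any 1 IFNg library only Oasl2 reached the minimum and 1 member was tested. Against Ctr, 2302 genes were called in all, but 1513 by edgeR, 5238 by DESeq2 with the replicate block and 5606 by edgeR with it. For Dexa against Ctr 98 became 22, 460 and 282 in the same order, and 59 to 112 when 1 library was left out, the lowest without Dexa replicate 2. For IFNg against Dexa 2345 became 5662 and 6045 with the replicate block. The cause was not tested. The near-0 Dexa against Ctr difference of Oasl2 turned to 0.077 and 0.062 with the replicate block in DESeq2 and edgeR, and ran from -0.43 to 0.22 with 1 library left out. That of Oas1a ran from -0.54 to 1.42. The block changed no call of a member. As shares of TPM in place of reads, Oasl2-201 held 32.5% and Oas1g-201 28.6%. At a few reads per library in Ctr and Dexa, depth limits every fold change given here.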
